A study of Rattus norvegicus with 46 samples.

Results

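Livers of rats given CagriSema were compared with livers of rats whose food was restricted until their body weight matched. The comparison holds 15 of the 46 bulk RNA-sequencing libraries of the series, chosen by tissue and treatment label: 7 from CagriSema livers (libraries 33 to 36 and 38 to 40) and 8 from weight-matched livers (libraries 25 to 32). All animals were DIO (diet-induced obese) rats labelled WT, and the liver was taken after 20 days. CagriSema combines cagrilintide, a long-acting amylin analog, and semaglutide, which activates the receptor of the gut hormone GLP-1. Both agents lower food intake, so food restriction to the same weight serves as the control for weight loss. The 8 liver libraries of vehicle-treated rats of the same kind entered no test and are given beside the results as levels. The sources used here give no dose, age or feeding state at sampling for these groups. Whether 2 libraries may share a rat is not stated, so each p-value covers only the spread from library to library, which may be technical.

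The liver turns sugar into fat when insulin and food are plentiful. Insulin switches on the transcription factor SREBP-1c, which drives the enzymes that carry carbon from citrate through acetyl-CoA and malonyl-CoA to fatty acids, while a sister factor, SREBP-2, drives cholesterol synthesis when cellular sterol is low. Insulin also restrains FOXO1, a factor that keeps on Igfbp1, Irs2, and the glucose-producing genes Pck1 and G6pc during fasting. Genes under SREBP-1c and FOXO1 can therefore differ between fed and fasted livers, and the feeding state at sampling is not given here.

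With weight matched, livers of the CagriSema group had higher expression of genes of fat and cholesterol synthesis. Some genes of the insulin and FOXO1 response were lower, Irs2 and Pck1 among them, while Igfbp1 and G6pc did not pass. Of 26 lipogenesis genes tested 11 were higher and none lower. Of 25 cholesterol synthesis genes 11 were higher and none lower. Of 20 genes of the insulin and FOXO1 response 5 were lower and 2 higher. Over all 12441 genes tested, edgeR's quasi-likelihood F test with Benjamini-Hochberg adjustment called 603, or 4.85% of them, at an adjusted p under 0.05. Of these 281 (2.26%) were higher and 322 (2.59%) lower with CagriSema. Most differences were small: the median log2 fold change was 0.40 among the higher and -0.34 among the lower genes, and 48 genes differed by more than 2-fold, 32 higher and 16 lower. In 156 genes (1.25%) the CPM ranges of the 2 groups did not overlap, and 147 of those were also called. The median log2 fold change of all genes tested was 0.00, and 50.3% had a positive fold change.

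The number of calls moved with the libraries in the fit. When the vehicle livers shared the fit and its estimate of the spread, 68 genes passed, 31 higher and 37 lower. All but 1 of these were among the 603, in the same direction (67 genes, 98.5% of the 68 and 11.1% of the 603). Without CagriSema library 39, 327 genes passed. Library totals were 9888858 to 15948219 counts, and a count of 0 in a library allowed up to 0.188 to 0.303 CPM (3 counts, counting error only). In a principal component analysis of the 2000 most variable genes, the leading axis (20.7% of variance) kept the groups apart: weight-matched libraries lay between -15.2 and 0.95 and CagriSema libraries between 2.40 and 18.6, library 39 farthest out.

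**Figure D1:**
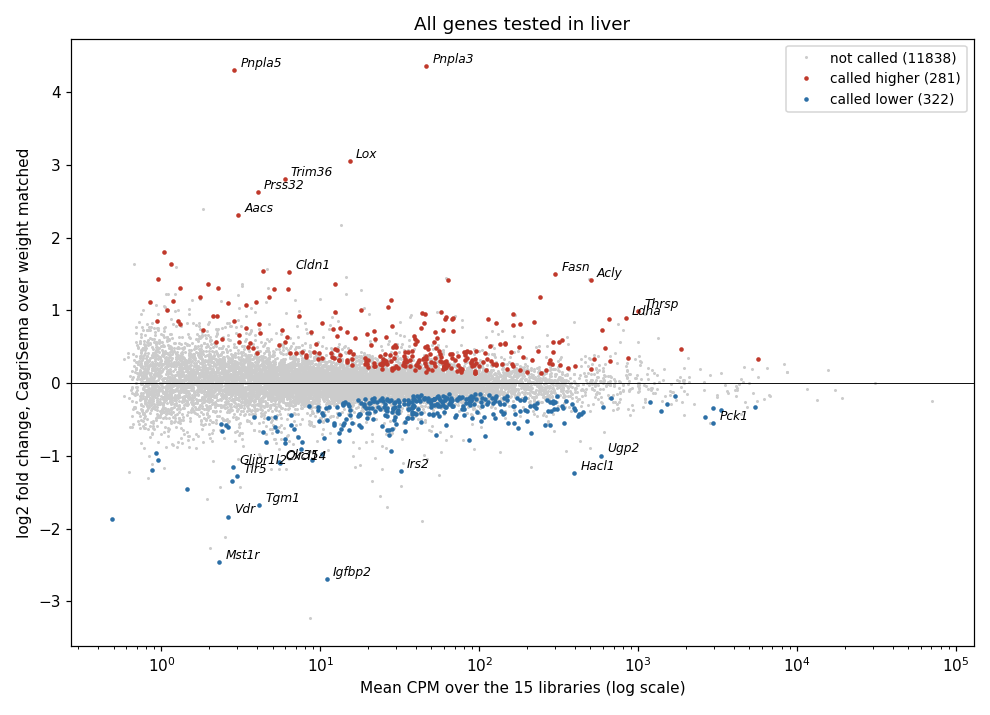
Each of the 12441 genes tested, by mean level over the 15 libraries (CPM, log scale) and log2 fold change of CagriSema over weight-matched livers. Red points are the 281 genes called higher and blue points the 322 called lower. Most called genes lie within 1 log2 unit of 0, and Pnpla3 and Pnpla5 stand highest.

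Among genes of fat synthesis, the largest difference was in Pnpla3 (ENSRNOG00000022268), a lipid-droplet protein that SREBP-1c switches on after a meal. Its level ran from 8.998 through a median of 38.4 to 389 CPM in the 7 CagriSema livers and from 2.09 through 3.76 to 12.4 CPM in the 8 weight-matched livers. The only overlap came from CagriSema library 33, at 8.998 CPM, and weight-matched library 29, at 12.4 CPM. The log2 fold change was 4.35 ± 0.78 (SE; edgeR adjusted p = 0.0107), and 3.29 (adjusted p = 0.0129) without library 39, which held the 389 CPM. In vehicle livers Pnpla3 ranged from 1.65 to 1337 CPM with a median of 60.1 CPM. Its close relative Pnpla5 was at most 0.92 CPM in the weight-matched livers and 0.33 to 26.8 CPM with CagriSema (log2 fold change 4.31 ± 1.21, adjusted p = 0.0322), and it passed in 6 of the 14 fits with 1 library left out in which it was tested.

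The enzymes that carry carbon from citrate to fatty acids were higher at several steps of the route. Acly (ENSRNOG00000016924), which splits citrate into cytosolic acetyl-CoA, ran from 372 through 670 to 1319 CPM with CagriSema and from 218 through 274 to 388 CPM with weight matching. Only CagriSema library 33, at 372 CPM, lay below the highest weight-matched library. The log2 fold change was 1.41 ± 0.24 (adjusted p = 0.00631). Fasn, the fatty acid synthase, ran from 168 through 407 to 876 CPM against 93.1 through 131 to 275 CPM. Again CagriSema library 33 was the 1 library inside the weight-matched range. Its log2 fold change was 1.49 ± 0.33 (adjusted p = 0.0233), and 1.26 (adjusted p = 0.0508) without library 39. Acaca, which makes malonyl-CoA, changed by 0.88 ± 0.14 (adjusted p = 0.00317). The citrate carrier Slc25a1 (0.49 ± 0.10, adjusted p = 0.0119), the acetyl-CoA synthetase Acss2 (0.88 ± 0.19, adjusted p = 0.0208) and the elongase Elovl5 (0.81 ± 0.17, adjusted p = 0.0175) were higher as well.

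Thrsp, a small protein that acts with the lipogenic enzymes and responds to thyroid hormone and carbohydrate, separated the groups completely. Its level was 1028 to 1753 CPM (median 1352) with CagriSema and 528 to 777 CPM (median 713) with weight matching. All 7 CagriSema libraries lay above all 8 weight-matched libraries, and the log2 fold change of 0.99 ± 0.10 had an adjusted p of 8.3e-05. Me1, cytosolic malic enzyme, a source of the NADPH that fat synthesis consumes, stood at 0.95 ± 0.26 and did not pass (adjusted p = 0.0527). Gpam, which starts the building of triglyceride, was higher by 0.95 ± 0.22 (adjusted p = 0.0266).

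Some central genes did not pass. Scd, the desaturase that makes monounsaturated fatty acids, ran from 252 through 375 to 2554 CPM with CagriSema and from 65.6 through 323 to 435 CPM with weight matching. The 2554 CPM came from library 39 alone. The log2 fold change was 1.43 ± 0.58 (adjusted p = 0.183), and 0.68 without library 39. Srebf1, the gene of SREBP-1, stood at 453 to 707 against 238 to 639 CPM (0.32 ± 0.18, adjusted p = 0.329), and Pklr, liver pyruvate kinase, at 0.63 ± 0.18 (adjusted p = 0.0555). Of all 26 tested members 24 had a positive log2 fold change, with a median of 0.81, and the 15 that did not pass ran from -0.25 (Lpin1) to 1.43 (Scd). The row labelled Elovl6 reached at most 0.19 CPM and was not tested, and no row was matched for Mlxipl. Scd and the Pnpla genes belong to families of similar sequence, so their counts may include reads of a relative.

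**Figure D2:**
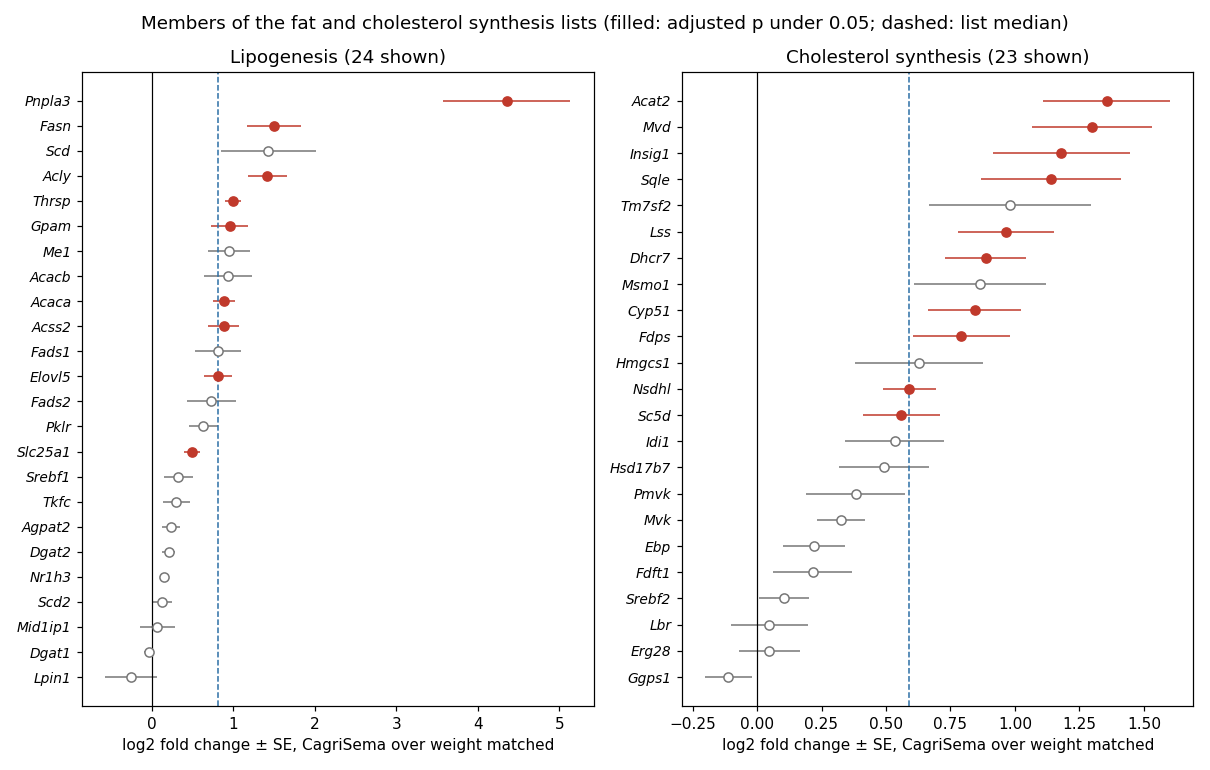
Log2 fold change of CagriSema over weight-matched livers (points) with its SE (bars) for 24 lipogenesis and 23 cholesterol synthesis genes. Filled points passed at an adjusted p under 0.05 (9 and 10 of those shown), and dashed lines mark the medians of all tested members, 0.81 and 0.59.

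Cholesterol synthesis moved at several steps from acetyl-CoA to the finished sterol. Early in the route, Acat2, which joins acetyl-CoA units, was higher without overlap (10.1 to 36.9 against 5.43 to 9.54 CPM, log2 fold change 1.36 ± 0.25, adjusted p = 0.00712), as was Mvd, the mevalonate diphosphate decarboxylase, with some overlap (1.30 ± 0.23, adjusted p = 0.00631). In the middle, squalene epoxidase, Sqle, ran from 22.4 through 39.2 to 72.8 CPM against 9.75 through 16.6 to 25.5 CPM. Its log2 fold change was 1.14 ± 0.27 (adjusted p = 0.0288). Sqle did not pass without weight-matched library 25 or 29 or CagriSema library 39 or 40 (adjusted p from 0.0504 to 0.0585). Later, Cyp51, which takes a methyl group off lanosterol, was 203 to 458 CPM (median 259) with CagriSema and 115 to 198 CPM (median 158) with weight matching. All 7 CagriSema libraries were above all weight-matched ones (0.84 ± 0.18, adjusted p = 0.0172). Nsdhl, which acts in the next demethylation, was 313 to 490 against 233 to 327 CPM (0.59 ± 0.10, adjusted p = 0.00448).

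Hmgcs1, which makes HMG-CoA, was 144 to 403 CPM against 89.2 to 222 CPM and did not pass (0.63 ± 0.25, adjusted p = 0.165), nor did Srebf2, the gene of SREBP-2 (0.10 ± 0.10, adjusted p = 0.591). Insig1, which holds SREBP in the endoplasmic reticulum and is itself an SREBP target, ran from 149 through 340 to 541 CPM against 90.5 through 151 to 209 CPM. CagriSema libraries 33 and 34 lay within the weight-matched range and the other 5 above it. Its log2 fold change was 1.18 ± 0.27 (adjusted p = 0.0236), and 1.06 (adjusted p = 0.0558) without library 39. The related Insig2 changed by 0.51 ± 0.14 (adjusted p = 0.0414) and passed in 4 of 15 fits with 1 library left out. Genes of sterol uptake and export had 1 call in 17 (5.88%), Insig2 itself, near the 4.85% called over all genes, with a median of 0.07. Of 25 cholesterol synthesis genes 24 had a positive fold change, with a median of 0.59.

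The extent of both programmes varied among CagriSema livers. Summed over the 26 tested lipogenesis genes, expression was 5860 CPM in library 33, 7112 in 34, 7884 in 35, 7787 in 36, 10690 in 38, 14220 in 39 and 9063 in 40, against 4505 to 6769 CPM in weight-matched livers. Library 33 was thus the 1 CagriSema liver inside the weight-matched range. The sum of the cholesterol synthesis genes was lowest in library 33 too, at 2694 CPM, and highest in library 38, at 5203 CPM. There the groups did not overlap, since weight-matched livers held 1951 to 2638 CPM. In vehicle livers the sums ran from 4805 to 21360 CPM for lipogenesis and from 1594 to 5782 CPM for cholesterol synthesis, wider than either group. Without library 39, 9 lipogenesis and 7 cholesterol synthesis genes were called, and with the vehicle livers in the fit 2 and 3 were.

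**Figure D3:**
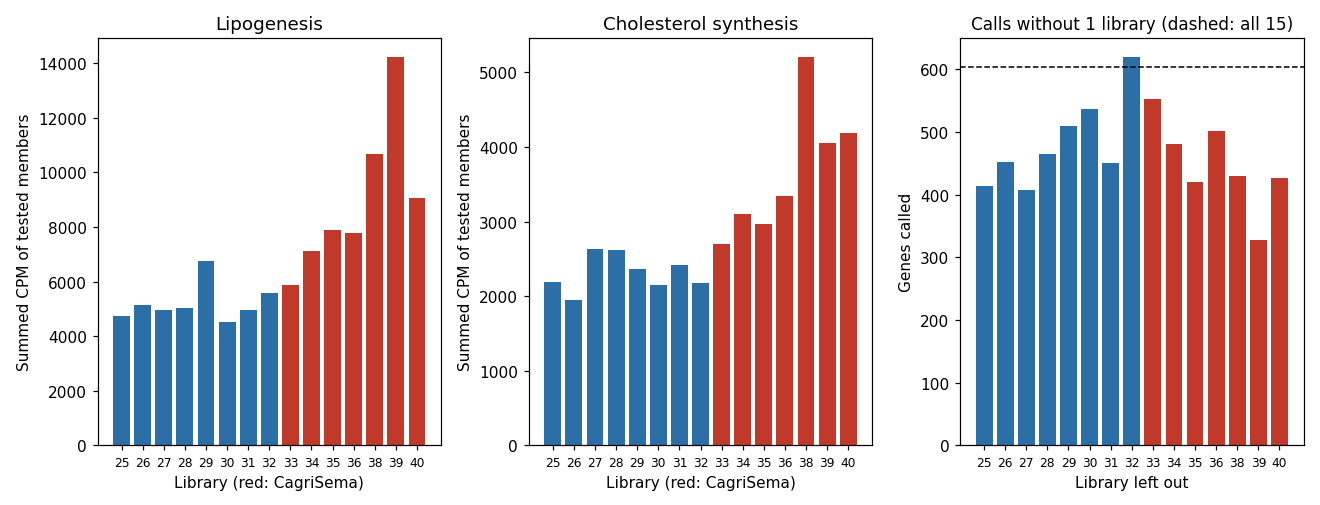
Left and middle, summed CPM of the tested lipogenesis and cholesterol synthesis genes in each of the 15 libraries, weight matched in blue and CagriSema in red. Right, number of genes called when the library on the axis was left out, with a dashed line at the 603 calls from all 15. Library 39 has the highest lipogenesis sum, and leaving it out gives the fewest calls, 327.

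Because these genes moved together, their promoters were searched for the letters of binding sites. Each sequence is the 250 bases before the annotated start in RefSeq, build GRCr8, written 5′ to 3′ on the strand of the gene. The genes are the pair of called members with the lowest p in each list for which RefSeq gave a promoter, with Pnpla3 and Insig1 added. Capitals mark CCAAT, or ATTGG, which is CCAAT read on the other strand. This box is bound by NF-Y, a factor known to work with SREBP at sterol genes. CACGTG, an E-box, is in capitals too.
Thrsp, chr1:161138965-161139214, minus strand: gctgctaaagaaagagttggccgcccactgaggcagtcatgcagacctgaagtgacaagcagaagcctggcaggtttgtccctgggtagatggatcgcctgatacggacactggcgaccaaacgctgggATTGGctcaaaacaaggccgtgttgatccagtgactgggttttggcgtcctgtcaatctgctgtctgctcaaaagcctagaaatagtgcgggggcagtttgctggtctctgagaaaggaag
Acly, chr10:85963632-85963881, minus strand: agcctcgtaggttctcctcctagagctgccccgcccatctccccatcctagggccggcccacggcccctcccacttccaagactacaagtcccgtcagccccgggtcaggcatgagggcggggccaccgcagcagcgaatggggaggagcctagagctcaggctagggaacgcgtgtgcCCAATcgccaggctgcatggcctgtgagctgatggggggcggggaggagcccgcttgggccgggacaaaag
Pnpla3, chr7:117173278-117173527, plus strand: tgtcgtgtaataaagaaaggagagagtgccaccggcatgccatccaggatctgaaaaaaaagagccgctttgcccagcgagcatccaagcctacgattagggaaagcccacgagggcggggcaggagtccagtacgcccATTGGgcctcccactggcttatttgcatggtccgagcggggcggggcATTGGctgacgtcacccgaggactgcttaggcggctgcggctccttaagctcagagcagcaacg
Nsdhl, chrX:155817110-155817359, plus strand: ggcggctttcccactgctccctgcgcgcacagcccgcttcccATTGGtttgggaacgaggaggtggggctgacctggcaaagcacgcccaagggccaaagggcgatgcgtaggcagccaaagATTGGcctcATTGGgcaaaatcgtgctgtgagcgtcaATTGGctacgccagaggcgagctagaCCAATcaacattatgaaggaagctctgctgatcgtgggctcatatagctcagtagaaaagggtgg
Mvd, chr19:67414975-67415224, minus strand: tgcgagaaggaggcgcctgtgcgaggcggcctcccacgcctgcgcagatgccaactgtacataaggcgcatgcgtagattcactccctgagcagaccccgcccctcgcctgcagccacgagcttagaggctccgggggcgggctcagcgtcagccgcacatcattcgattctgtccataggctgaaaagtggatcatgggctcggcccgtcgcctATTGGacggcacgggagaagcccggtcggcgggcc
Insig1, chr4:8057770-8058019, minus strand: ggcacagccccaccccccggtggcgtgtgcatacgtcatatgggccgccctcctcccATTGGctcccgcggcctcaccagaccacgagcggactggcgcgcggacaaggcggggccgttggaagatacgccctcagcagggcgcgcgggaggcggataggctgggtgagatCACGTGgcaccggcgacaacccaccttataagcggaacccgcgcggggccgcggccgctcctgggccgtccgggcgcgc

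The sterol regulatory element core TCACNCCAC, searched on both strands over 300 bases (250 before the start and 50 after it), was in none of the 20 lipogenesis and none of the 20 cholesterol synthesis promoters given by RefSeq. It was in 1.17% of the promoters of all genes tested (9057 genes). A core this rare can be absent from 20 promoters without setting them apart from other genes. Fasn, Acaca, Sqle and Fdft1 were among the list members without a promoter in RefSeq, and they were not searched. The E-box CACGTG was in 1 lipogenesis promoter, that of Elovl5 (5.0%), and in 2 of the 20 of cholesterol synthesis, those of Sc5d and Insig1, against 9.80% of all. CCAAT, which was added after those counts were seen, was in 12 lipogenesis promoters (60.0%) and 16 cholesterol synthesis promoters (80.0%), against 39.1% of all. At least 2 CCAAT boxes were in 11 of the 20 cholesterol synthesis promoters (55.0%) and 4 lipogenesis promoters (20.0%), against 13.6% of all, and Nsdhl held 5. In the promoters of all genes called higher, CCAAT was in 47.5%, and in those of genes called lower in 36.9%. The letters of CCAAT and CACGTG cannot overlap, and CCAAT and TCACNCCAC overlapped in 2 of all promoters. These shares describe letters in a window, not binding. Among cholesterol synthesis genes, Hmgcs1, Idi1 and Srebf2 did not pass and also held CCAAT, while the called genes Acat2, Cyp51 and Dhcr7 did not. In the lipogenesis list every called gene with a promoter in RefSeq held CCAAT. Among its uncalled genes Acacb, Scd2 and Srebf1 held it, and Scd, Me1 and Pklr did not.

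Of 20 genes of the insulin and FOXO1 list, 5 were lower with CagriSema, 2 higher and 13 not called. Whether insulin or FOXO1 had a part in these differences was not tested. Irs2, an adaptor of the insulin receptor that rises in fasting, ran from 10.7 through 19.2 to 26.3 CPM with CagriSema and from 24.98 through 41.1 to 69.7 CPM with weight matching. The only overlap was between CagriSema library 34 and weight-matched library 27. The log2 fold change was -1.21 ± 0.24 (adjusted p = 0.0149). In vehicle livers Irs2 ran from 7.54 through 22.6 to 71.8 CPM, across the levels of both groups. Igfbp2, whose product binds insulin-like growth factors in blood, was 0.51 to 4.80 CPM with CagriSema. In weight-matched livers it was uneven, at 35, 41.4 and 36.97 CPM in libraries 25, 27 and 31 and 2.0 to 11.5 CPM in the other 5. Its log2 fold change was -2.70 ± 0.70 (adjusted p = 0.0450), and it passed in 4 of 15 fits with 1 library left out (adjusted p up to 0.0908).

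Pck1, the rate-limiting enzyme of gluconeogenesis, ran from 1856 through 2349 to 2865 CPM against 2655 through 3236 to 4456 CPM. Only CagriSema libraries 33 and 35 reached the level of the lowest weight-matched library, 28, and Pck1 was lower by 0.55 ± 0.12 on the log2 scale (adjusted p = 0.0163). Vehicle livers held 2608 to 5260 CPM of Pck1, with a median of 3726 CPM, above that of the weight-matched livers. Irs1 (-0.43 ± 0.11, adjusted p = 0.0341) and Foxo3 (-0.63 ± 0.16, adjusted p = 0.0340) were the other lower members. Among the higher members was Akt2, an insulin-signalling kinase (0.21 ± 0.05, adjusted p = 0.0320). Igfbp1 (-0.73 ± 0.49, adjusted p = 0.447) and G6pc, glucose 6-phosphatase (-0.80 ± 0.44, adjusted p = 0.338), did not pass. Weight-matched G6pc values alone ran from 73.6 to 958 CPM. Without CagriSema library 39, 2 genes of this list were called, Irs2 and Pck1, and with the vehicle livers in the fit 1 was.

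Glucose handling changed at a few more steps. From the list of gluconeogenesis and glycogen 3 of 19 genes were lower and none higher, with a median of -0.10. Ugp2, which makes UDP-glucose for glycogen, was 275 to 469 CPM (median 410) with CagriSema and 511 to 973 CPM (median 782) with weight matching. The groups did not overlap (-0.997 ± 0.162, adjusted p = 0.00431), and vehicle livers held 215 to 535 CPM. Pck1 was the second of the 3, and Slc37a4, the glucose 6-phosphate transporter, the last, at -0.35 ± 0.07 (adjusted p = 0.0122). Among 20 glycolysis genes 3 were higher, with Eno1 (0.31 ± 0.08, adjusted p = 0.0392) and Ldha among them. Lactate dehydrogenase A, Ldha, was 954 to 1332 CPM (median 1042) against 387 to 930 CPM (median 539), without overlap (0.89 ± 0.17, adjusted p = 0.00931). The list median was 0.14. Without CagriSema library 39, 1 glycolysis gene and 3 of gluconeogenesis and glycogen were called, and with the vehicle livers in the fit 1 of each list was.

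**Figure D4:**
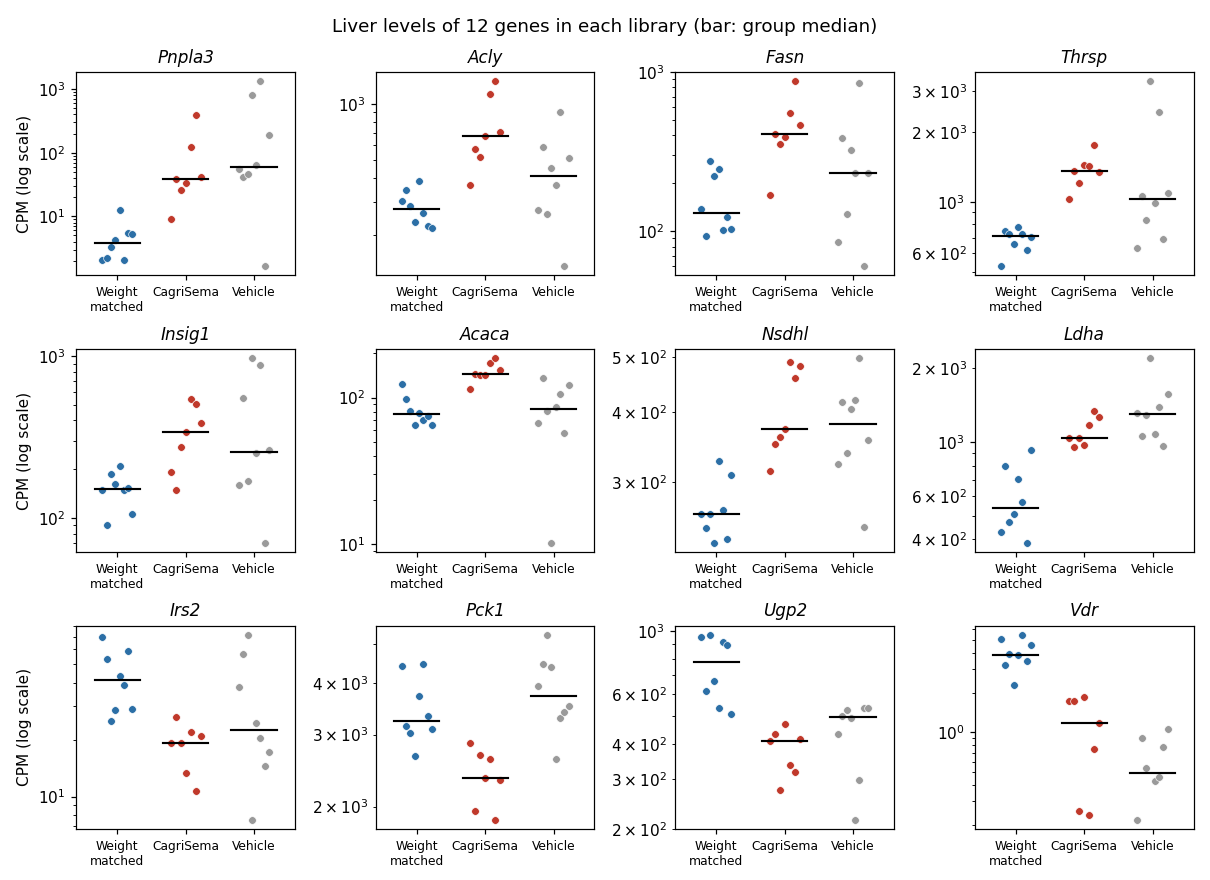
Levels of 12 genes in every liver library (CPM, log scale), each point a library and each bar a group median. Thrsp and Ldha are higher in all 7 CagriSema libraries than in all 8 weight-matched ones, and Ugp2 and Vdr are lower in all 7. Vehicle libraries, in grey, spread most widely for Pnpla3, and the 1 vehicle library at 0 CPM for Vdr is not drawn on the log axis.

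Of 34 genes of fatty acid oxidation and ketogenesis 2 were called (5.88%), both lower, near the 4.85% called over all genes. In this list 9 genes had a positive fold change, with a median of -0.12, and DESeq2 called 6. Hacl1, a peroxisomal lyase of alpha-oxidation, was 139 to 313 CPM (median 219) against 248 to 1204 CPM (median 457), the highest value from weight-matched library 25. Its log2 fold change was -1.24 ± 0.29 (adjusted p = 0.0320), and it passed in 8 of 15 fits with 1 library left out. Ech1, an isomerase of unsaturated fatty acids, was lower by 0.61 ± 0.15 on the log2 scale (adjusted p = 0.0358), also in 8 of 15 such fits. The lipid droplet and lipolysis list had 2 calls in 16, Pnpla3 and Pnpla5. Its other genes ran from -0.54 (Cidea) to 0.38 (Plin3) and did not pass. In lipoprotein handling 1 of 21 genes was called (4.76%), also near the share over all genes. It was Tm6sf2, which loads lipid onto VLDL (0.38 ± 0.10, adjusted p = 0.0433), in 4 of 15 such fits. Without CagriSema library 39, 1 gene each of fat oxidation and of the lipid droplet list was called, and 0 of lipoprotein handling by edgeR. Fgf21, a fasting hormone of the liver, was 1.89 to 4.43 CPM with CagriSema and 2.01 to 3.98 CPM with weight matching (0.08 ± 0.20, adjusted p = 0.867).

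In amino acid breakdown 2 of 31 genes were higher and 3 lower (16.1% called, against 4.85% over all genes), with a median of 0.00. Leaving out CagriSema library 39 gave 3 calls in this list, and the edgeR fit with the vehicle livers 0. Hgd, which opens the ring of homogentisate in tyrosine breakdown, was 141 to 228 CPM (median 171) against 95.0 to 137 CPM (median 118). No library overlapped (0.55 ± 0.09, adjusted p = 0.00317). Oat, ornithine aminotransferase, was higher by 0.95 ± 0.23 (adjusted p = 0.0323). Ftcd, which passes the histidine carbon to folate, was 280 to 457 CPM against 440 to 512 CPM (-0.45 ± 0.08, adjusted p = 0.00690), and Kmo (-0.31 ± 0.08, adjusted p = 0.0376) and Bckdha (-0.24 ± 0.05, adjusted p = 0.0101) were lower too. Among 16 genes of sulfur amino acids, taurine and glutathione 2 were lower (12.5%). They were Gclm, the regulatory subunit of the first glutathione-making enzyme (-0.69 ± 0.15, adjusted p = 0.0190), and Ahcy, which breaks down S-adenosylhomocysteine (-0.38 ± 0.09, adjusted p = 0.0187). The bile acid list had 1 called gene in 18 (5.56%), near the 4.85% over all genes. It was Baat, which joins bile acids to taurine or glycine and was lower (-0.29 ± 0.07, adjusted p = 0.0266). Baat did not pass without any 1 of CagriSema libraries 35, 38, 39 and 40 (adjusted p from 0.0501 to 0.0609). Cyp7a1, which sets the rate of bile acid production, was 119 to 277 against 132 to 359 CPM (-0.39 ± 0.20, adjusted p = 0.305).

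In the growth hormone and IGF list 1 of 19 genes was higher and 1 lower, with a median of 0.03, against 4.85% called over all genes. The lower gene was Igfbp2, which did not pass without CagriSema library 39 (adjusted p = 0.0908). The higher gene was Stat3, a transcription factor downstream of cytokine receptors, which was 131 to 237 against 92.5 to 138 CPM (0.54 ± 0.11, adjusted p = 0.0122). Igf1 stood at -0.03 ± 0.08 (adjusted p = 0.880) and the growth hormone receptor gene Ghr at 0.17 ± 0.07 (adjusted p = 0.190). Stat3 was also a member of the acute phase and complement list, where 2 of 24 genes were higher (8.33%). The other was Hpx, the heme carrier hemopexin (0.33 ± 0.08, adjusted p = 0.0331), which passed in 7 of 15 fits with 1 library left out. In coagulation, Kng1, kininogen, was higher (0.47 ± 0.12, adjusted p = 0.0372, in 4 of 15 such fits). Klkb1, plasma kallikrein, which cuts kininogen, was lower (-0.40 ± 0.10, adjusted p = 0.0249), and it did not pass without CagriSema library 35 or 39 (adjusted p = 0.0535 and 0.0533). Proc, protein C, was lower as well (-0.20 ± 0.06, adjusted p = 0.0446). Of 20 endoplasmic reticulum chaperone genes 2 were higher (10%) and 16 positive, with a median of 0.14. The 2 were Dnajb11 (0.39 ± 0.08, adjusted p = 0.0110) and Calr (0.34 ± 0.09, adjusted p = 0.0392, in 3 of 15 such fits). With CagriSema library 39 left out, 1 gene was called in each of the acute phase, coagulation and chaperone lists, and with the vehicle livers in the edgeR fit 1, 0 and 1.

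Among 22 nuclear receptors 2 were lower and 1 higher. Vdr, the vitamin D receptor, was 0.24 to 1.86 CPM (median 1.18) with CagriSema and 2.28 to 5.47 CPM (median 3.87) with weight matching. No library overlapped (-1.84 ± 0.34, adjusted p = 0.00690), and vehicle livers held 0 to 1.07 CPM. The low values rest on few counts, close to the 0.188 to 0.303 CPM that a count of 0 allows. The retinoic acid receptor gene Rarb was higher (0.67 ± 0.15, adjusted p = 0.0220) and Rxrb lower (-0.22 ± 0.05, adjusted p = 0.0286). In the core clock 3 of 18 genes were lower, none higher, and 5 positive, with a median of -0.20. Per3, a period gene, was 107 to 134 CPM (median 122) against 146 to 190 CPM (median 159). The groups did not overlap (-0.41 ± 0.06, adjusted p = 0.00199). Cry1, a repressor of the clock, was lower as well (-0.41 ± 0.11, adjusted p = 0.0480). Leaving out CagriSema library 39, 1 clock gene and 2 nuclear receptor genes were called, and with the vehicle livers in the edgeR fit 0 and 1. The time of day at which livers were taken is not stated in the labels.

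Of the immediate-early genes, which respond within minutes to stimuli and to handling, 1 of 16 was called (6.25%), near the 4.85% over all genes. It was Klf2, which was lower (-0.82 ± 0.19, adjusted p = 0.0192). Only 1 of the 16 had a positive fold change, with a list median of -0.40. In the cell cycle list 1 of 16 genes was called (6.25%), also near the share over all genes. This gene, Mcm5, a helicase subunit of DNA replication, was higher at a low level, 1.45 to 3.65 against 0.34 to 1.85 CPM (1.18 ± 0.28, adjusted p = 0.0223). Mcm5 did not pass without CagriSema library 39 (1.12, adjusted p = 0.0508). No gene was called in the lists of sex-biased and xenobiotic P450s (20 tested), conjugation enzymes (18), ATF4 targets (18), interferon response (18), oxidative phosphorylation (27), extracellular matrix (23), iron handling (15) and glucocorticoid response (15) by edgeR. In that order the lists held 4, 1, 2, 0, 6, 4, 2 and 5 genes at an unadjusted p under 0.05, and DESeq2 called 3, 1, 1, 0, 2, 3, 1 and 4. A list without calls does not show that its genes were equal in the groups.

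Receptors of the drugs were hardly detected in liver. Calcr, the core of the amylin receptors, had no count in any of the 15 libraries, and Glp1r had at most 0.08 CPM in any library, both under the limit that a count of 0 allows. Of the receptor-modifying proteins, Ramp1 was 2.34 to 4.43 CPM with CagriSema and 2.23 to 3.86 CPM with weight matching (0.24 ± 0.17, adjusted p = 0.453), and Ramp2 differed by 0.09 ± 0.14 (adjusted p = 0.778). Ramp3 reached at most 0.32 CPM.

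The largest differences outside these pathways were mostly at low levels, Lox being the exception. Trim36, a ubiquitin ligase, was 2.59 to 19.6 CPM (median 9.69) against 0.38 to 3.60 CPM (median 1.29). Only CagriSema library 36 lay inside the weight-matched range (2.80 ± 0.48, adjusted p = 0.00566). Lox, a collagen cross-linking oxidase that was not on the extracellular matrix list, ran from 2.12 through 20.2 to 81.6 CPM with CagriSema. With weight matching it ran from 0.20 through 1.92 to 8.68 CPM (3.05 ± 0.75, adjusted p = 0.0369). Prss32, a serine protease, was higher by 2.62 ± 0.66 (adjusted p = 0.0346). Aacs, an acetoacetyl-CoA synthetase that supplies lipid synthesis (2.31 ± 0.62, adjusted p = 0.0421), and Cldn1, a tight-junction protein (1.53 ± 0.35, adjusted p = 0.0217), completed the largest increases. Among the largest decreases were the receptor kinase Mst1r (-2.45 ± 0.68, adjusted p = 0.0472), the transglutaminase Tgm1 (-1.68 ± 0.45, adjusted p = 0.0450), the flagellin receptor Tlr5 (-1.28 ± 0.33, adjusted p = 0.0367) and Glipr1l2 (-1.16 ± 0.24, adjusted p = 0.0136). The chemokine Cxcl14 (-1.11 ± 0.26, adjusted p = 0.0258) and the olfactory receptor row Olr35 (-1.08 ± 0.29, adjusted p = 0.0440) followed. Of these, Trim36, Cldn1 and Glipr1l2 passed in all 15 fits with 1 library left out. Cxcl14 passed in 14 of them, all but the fit without CagriSema library 39 (adjusted p = 0.0583), and the other 7 in 4 to 6 of them.

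**Figure D5:**
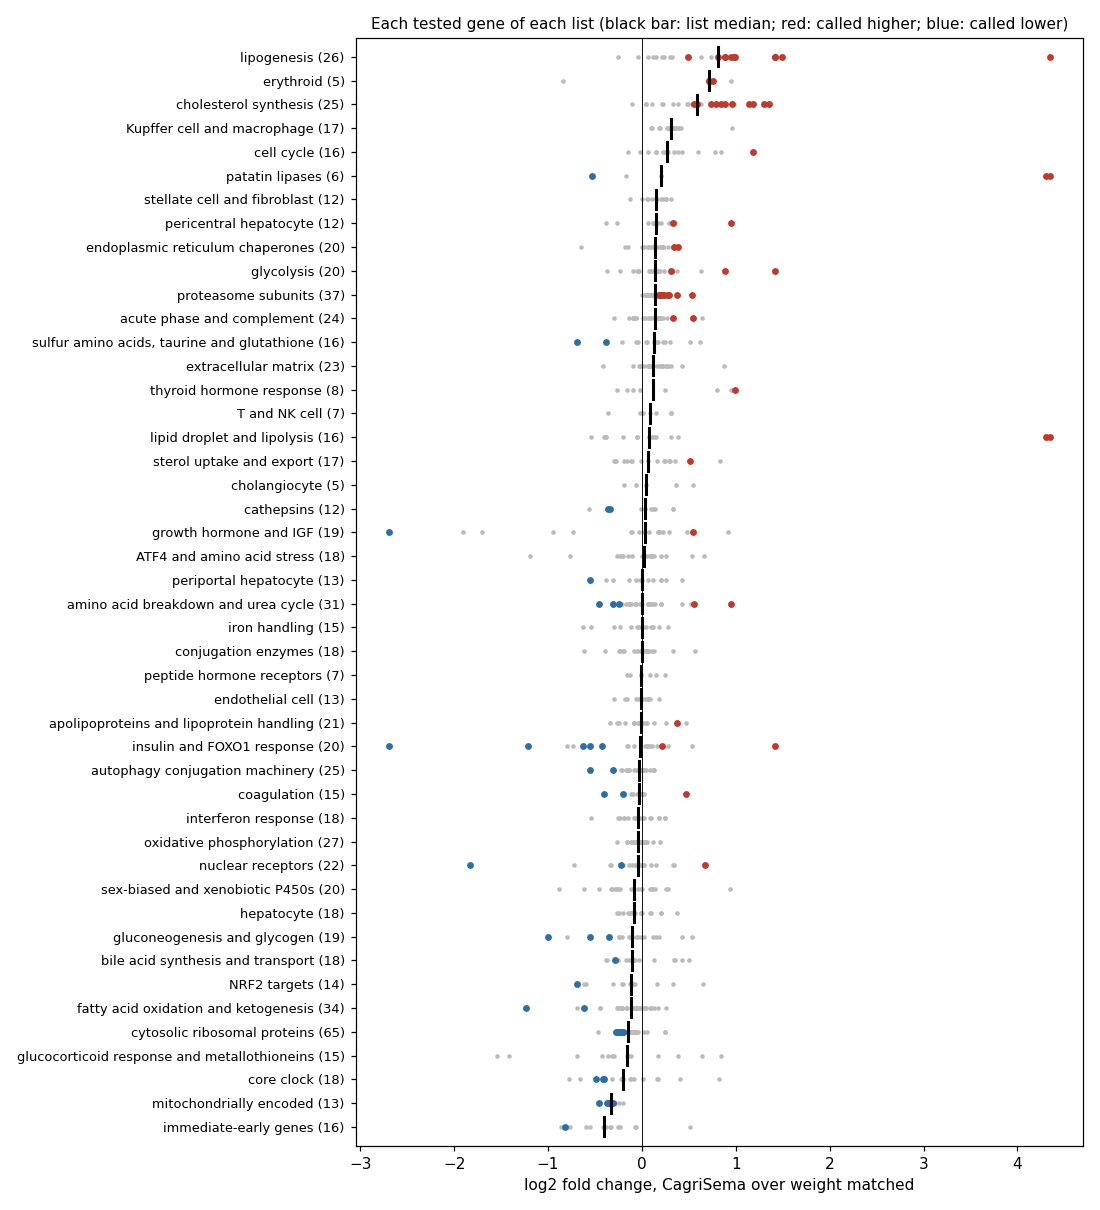
Log2 fold change of CagriSema over weight-matched livers for each tested gene (points) of each list with at least 5 tested genes, with the list median as a black bar and the number tested in brackets. Red points were called higher and blue points lower. Lipogenesis and cholesterol synthesis lie farthest right among the pathway lists, and immediate-early genes farthest left.

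Of 49 named genes that passed, 24 passed in every fit with 1 library left out and 14 passed with the vehicle livers in the fit. Among those 14 were Pnpla3, Acly, Trim36, Ldha, Nsdhl, Stat3 and Dnajb11, which were higher, and Igfbp2, Vdr, Hacl1, Glipr1l2, Ugp2 and Gclm, which were lower. Thrsp, with the lowest p among the named genes in the 2-group fit, had an adjusted p of 0.107 there. Its vehicle levels ran from 633 to 3302 CPM.

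Markers of liver cells showed the tissue named in the labels. The 18 matched hepatocyte markers summed to 127000 to 158500 CPM with CagriSema and 135100 to 164500 CPM with weight matching, and their median was -0.09. None was called by edgeR (4 at an unadjusted p under 0.05, 4 called by DESeq2). Kupffer cell and macrophage markers were positive in 17 of 17 genes, none called by edgeR or DESeq2 (5 at an unadjusted p under 0.05), with a median of 0.31 and sums of 637 to 805 against 316 to 821 CPM. Erythroid genes had 3 of 5 rows higher, all of hemoglobin (Hbb 0.76 ± 0.19, adjusted p = 0.0340, and 2 rows named Hba-a2), with sums of 154 to 219 against 76.1 to 172 CPM. The other 2 rows did not pass and went opposite ways, Slc4a1 at -0.84 and Alas2 at 0.94. None of the 3 hemoglobin rows passed without CagriSema library 39. Sums of skeletal muscle and exocrine pancreas markers were at most 1.79 CPM in all 15 libraries. Counts of mitochondrially encoded genes took 4.44% ± 0.371 (SD, n = 7) of each CagriSema library and 5.255% ± 0.496 (SD, n = 8) of each weight-matched library (two-sided exact permutation test, p = 0.00591, adjusted p = 0.0236 over 4 library measures). Library total (adjusted p = 0.271), the share of ribosomal protein genes (adjusted p = 0.152) and that of the 10 most abundant genes (adjusted p = 0.152) did not pass the same exact test. The part of blood, macrophage content and mitochondrial share in the gene results was not tested. In bulk tissue, fewer cells of a type and less RNA per cell cannot be told apart.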

How the data were processed

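Gene counts of 15 liver libraries were analysed, with 8 vehicle livers as levels. The deposited values are raw counts, whole numbers for 32552 rows named by Ensembl identifier and symbol. RNA came from an RNeasy Minikit and libraries from a Twist UMI system, per the labels' protocols. The submitters' processing notes name fastp 0.23.1 and STAR 2.5.2b. Genome build, annotation, counting program and any use of UMIs were not given in the sources used here. Count columns were assigned by title, leaving out 1 that had no match.

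Totals were 9888858 to 15948219 counts per library. Of 105 library pairs none was near-identical (smallest chi-square divided by its degrees of freedom, 15.9). In R 4.3.3, edgeR 4.0.16 (filterByExpr, TMM, glmQLFit with robust estimation, glmQLFTest) fitted the 2 groups alone, with Benjamini-Hochberg adjustment over 12441 genes and a threshold of 0.05. Every adjusted p of a gene is from this fit unless another is named. Levels are CPM on TMM-scaled sizes of the 15 libraries (vehicle levels on those of all 23 livers). A fold change is CagriSema over weight matched, on the log2 scale, with its SE. The script was tested on simulated data first.

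Lists held 31 pathways and 15 cell types (750 genes, 34 without a matched row). The members and lists were chosen with earlier results of these data known, and 7 further gene families were added after the values were seen. Named genes were the 10 largest increases and 10 largest decreases among called genes of at least 1 CPM with a proper symbol, up to 2 called genes of lowest p per pathway list, and a list of lipid, insulin and receptor genes taken whether or not they passed. Other genes given with values were chosen after those were seen, and some genes are not reported here. Alternatives were other filters, RLE scaling, no robust estimation, DESeq2 1.42.0, limma 3.58.1 voom with quality weights, all 3 liver groups in 1 fit, and leaving out each library. Promoters came from RefSeq, build GRCr8, matched by symbol, 20 of 26 lipogenesis and 20 of 25 cholesterol synthesis genes. Library measures used exact permutation tests in Python 3.11.15 (numpy 2.4.6).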

Additional observations from a re-analysis of the deposited data

Results flagged for a closer look

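A single library stood apart from its group in 6 of 142 sets of values examined (the tested named genes and 5 library measures in both groups), where chance flags about 5% of groups. The test was the gap to the nearest library as a share of the group's range, against Dixon's 95% limit.

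CagriSema library 39 was the highest of its group in 3 genes of lipid synthesis and storage. It held 389 CPM of Pnpla3 (next highest 122 CPM), 26.8 CPM of Pnpla5 (next 7.31 CPM) and 2554 CPM of Scd (next 783 CPM). CagriSema library 40 was the highest in Mst1r, at 2.08 CPM (next 1.01 CPM). Among weight-matched livers, library 29 was the highest in Pnpla3, at 12.4 CPM (next 5.54 CPM), and library 25 in Hacl1, at 1204 CPM (next 663 CPM). The sequencing depth of library 39, 14385124 counts, lay inside the range of its group, and its mitochondrial share, 4.09%, was the lowest of the 15.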

How the results depend on the processing

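Medians of the lipogenesis and cholesterol synthesis lists kept their sign and size under every alternative: 0.67 to 0.89 and 0.48 to 0.64 when 1 library was left out, and 0.72 to 0.82 and 0.57 to 0.59 under the 7 other settings. Counts of calls did not. The fit of 3 liver groups called 68 genes, 31 higher and 37 lower, and DESeq2 called 1046, 488 higher and 558 lower, with 602 of the 603 among them. Without a low-count filter 408 were called, 204 higher and 204 lower. Leaving out 1 library gave 327 to 619 calls, 155 to 290 higher and 172 to 329 lower, the fewest without CagriSema library 39, and without weight-matched library 27 the lower calls were 213. RLE scaling (592), a filter at 1 CPM (606), no robust estimation (612) and voom with quality weights (545) stayed within 1.5 times of 603. Of the 603 calls, 281 were made in all 15 leave-one-out fits. Of 49 named calls, 35 were lost in the 3-group fit, 18 without a filter, 10 with voom weights and 23 without library 39, and none with DESeq2, which added 4, Me1 and Pklr among them. Signs turned only in uncalled genes: Igf1 to 0.0071 without weight-matched library 28 and 0.0113 without CagriSema library 34 (range from -0.0545 to 0.0113 over the libraries left out), and Fgf21 to -0.0292 without CagriSema library 40 (range from -0.0292 to 0.1692). The cause of these shifts was not tested. No paired analysis was possible because the 2 liver groups share no library number.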

Other observations

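Of 7 gene families added after the values were seen, some had calls in 1 direction and others did not. Of 37 tested subunits of the proteasome, which degrades tagged proteins, 12 were higher, none lower and 36 positive, with a median log2 fold change of 0.14, against 4.85% called over all genes. Their summed level was 2308 to 2444 CPM in CagriSema livers and 2022 to 2276 CPM in weight-matched livers, without overlap. Psmd14, which removes ubiquitin at the lid, was 24.7 to 29.7 against 17.7 to 24.6 CPM (0.38 ± 0.07, edgeR adjusted p = 0.00648), and Psmb9, an immunoproteasome subunit, was higher by 0.53 ± 0.10 (adjusted p = 0.00770). Without CagriSema library 39, 7 subunits were called, and with the vehicle livers in the edgeR fit 0 were.

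Mitochondrially encoded genes were negative in 13 of 13, with 6 lower (2 without CagriSema library 39, 0 with the vehicle livers in the edgeR fit) and a median of -0.33. Mt-nd2, a complex I subunit, differed by -0.46 ± 0.10 (adjusted p = 0.0149). The nuclear oxidative phosphorylation list had no call by edgeR (6 genes at an unadjusted p under 0.05, 2 called by DESeq2) and a median of -0.04. Cytosolic ribosomal protein genes had 8 of 65 lower and none higher, with a median of -0.15 (2 calls without library 39, 0 with the vehicle livers in the fit). All 3 tested glycine acyltransferases, which join acids to glycine, were lower, Glyat at -0.55 ± 0.09 (adjusted p = 0.00434), Glyatl1 at -0.52 ± 0.09 (adjusted p = 0.00420) and Glyatl2 at -0.55 ± 0.13 (adjusted p = 0.0222).

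Pink1, the kinase that marks damaged mitochondria for removal, was 183 to 234 CPM (median 210) with CagriSema and 278 to 353 CPM (median 301) with weight matching, without overlap (-0.58 ± 0.06, adjusted p = 0.000148). Gabarapl1, an autophagosome protein, was 112 to 148 CPM against 154 to 240 CPM, also without overlap (-0.55 ± 0.08, adjusted p = 0.00180). Lower too were Flcn (-0.44 ± 0.08, adjusted p = 0.00695), the lysosomal channel gene Mcoln1 (-0.33 ± 0.07, adjusted p = 0.0171), the lysosome regulator Tfeb (-0.29 ± 0.08, adjusted p = 0.0421) and Bnip3 (-0.33 ± 0.09, adjusted p = 0.0375). Pink1, Gabarapl1, Flcn and Mcoln1 passed in every fit with 1 library left out, and Tfeb and Bnip3 did not. Of 25 genes of the autophagy conjugation machinery 2 were lower (8%, against 4.85% over all genes) and 9 positive, with a median of -0.03. Of 12 cathepsins 2 were lower (16.7%) and 7 positive, with a median of 0.04. Of 6 patatin-like lipase genes 2 were higher, Pnpla3 and Pnpla5, and 1 lower: Pnpla7, a lysophospholipase gene, was 129.5 to 184.9 CPM against 184.6 to 304 CPM (-0.53 ± 0.10, adjusted p = 0.00891). In vehicle livers Pink1 was 173 to 309 CPM and Gabarapl1 105 to 184 CPM.

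Lrp5, a co-receptor of Wnt signals, was among the lowest p of the increases (0.83 ± 0.09, adjusted p = 0.000160), with a median of 161 CPM against 94.3 CPM. All 7 CagriSema libraries lay above the 8 weight-matched ones.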
